A study of Mus musculus with 15 samples.

Results

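Osteopontin and its receptors were followed in kidney and lung RNA of mice given a leptin-neutralizing antibody or control IgG. The genes were chosen by name, as the osteopontin gene *Spp1*, the receptor gene *Cd44* and the integrin subunit genes *Itgav*, *Itgb1*, *Itgb3*, *Itgb5*, *Itgb6*, *Itga4*, *Itga5* and *Itga9*. All 10 were present, among 56748 genes in the deposited count table. There were 5 groups of 3 libraries, all from wild-type mice, which the study's methods describe as male C57Bl/6. WTK kidneys came from mice given vehicle, and the labels name no antibody for them. IgGK and LepK kidneys came from mice given folic acid at 200 mg/kg, a dose that injures the tubules, followed by control IgG (IgGK) or LepAb (LepK), a human monoclonal antibody that neutralizes leptin, at 10 mg/kg every other day for 21 days. The kidney mice were 10 to 12 weeks old and were euthanized on day 28. IgGL and LepL lungs came from 12-week-old mice given bleomycin at 1.5 units/kg into the airway, followed by IgG (IgGL) or LepAb (LepL) at 10 mg/kg for 14 days, with euthanasia on day 14. No vehicle-treated lung was analysed here. The study describes the lung groups as 3 mice each. For the kidney groups neither the labels nor the study say whether each library is 1 mouse, and there the p-values measure the spread between libraries.

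Osteopontin is a secreted, phosphorylated glycoprotein that is both a matrix component and a cytokine. Injured tubule cells, macrophages and activated fibroblasts release it, and it is a familiar mark of fibrosing kidney and lung. It binds cells through an Arg-Gly-Asp (RGD) motif, which is read by integrins that pair the αv subunit with β1, β3, β5 or β6 and by α5β1. A motif next to it, which cleavage by thrombin exposes, is read by α4β1 and α9β1. CD44, the main hyaluronan receptor, is a further osteopontin receptor that does not need the RGD motif.

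The stretch of *Spp1* that encodes both motifs is shown because the receptor genes below are grouped by which of them they read. It is coding bases 400 to 486 of 885, counted from the A of the start codon, and lies in exon 6 of 7 in the GENCODE M21 transcript (chr5:104439451-104439537 on the plus strand of GRCm38). Capitals mark the 3 codons of the RGD motif, residues 144 to 146 of 294, followed directly by the 7 codons of the α4 and α9 motif. The RGD motif occurs once in the encoded protein.
*Spp1* coding stretch, 5′ to 3′: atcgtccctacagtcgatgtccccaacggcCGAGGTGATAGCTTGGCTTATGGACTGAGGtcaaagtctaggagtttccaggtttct

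The 250 bases upstream of the RefSeq starts of *Spp1* and *Cd44* are shown because these genes had the largest rises among the 10 in IgGK against WTK. Both are from GRCm38.p6, at chr5:104434861-104435110 on the plus strand and chr2:102901666-102901915 on the minus strand. Both strands were searched for the RUNX-type motif AACCACA, the AP-1-type motif TGACTCA, the E-box CACGTG, the CCAAT box CCAAT, the TATA-like TTTAAA and the GC box GGGCGG, and matches are in capitals.
*Spp1* upstream, 5′ to 3′: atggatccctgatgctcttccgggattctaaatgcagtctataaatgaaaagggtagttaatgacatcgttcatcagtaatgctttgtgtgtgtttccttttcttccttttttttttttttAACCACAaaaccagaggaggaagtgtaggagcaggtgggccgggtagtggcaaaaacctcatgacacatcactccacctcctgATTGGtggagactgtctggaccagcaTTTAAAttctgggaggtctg
*Cd44* upstream, 5′ to 3′: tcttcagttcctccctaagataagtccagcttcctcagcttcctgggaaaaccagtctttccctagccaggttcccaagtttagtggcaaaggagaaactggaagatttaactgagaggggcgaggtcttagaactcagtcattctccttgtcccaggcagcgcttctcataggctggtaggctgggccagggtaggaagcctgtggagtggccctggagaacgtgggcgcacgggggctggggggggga
The *Spp1* window held the RUNX-type motif, the CCAAT box on the reverse strand and the TATA-like motif, which are found in 4.4%, 33.8% and 12.1% of 32851 windows of this length. The *Cd44* window held no match to these 6 motifs. RefSeq windows were found for 9 of the 10 genes, with *Itgb3* missing. The GC box was in the windows of *Itga4*, *Itga5*, *Itgb1* and *Itgb5* (32.7% of all windows), and the TATA-like motif was also in that of *Itgb6*. The AP-1-type motif (4.46% of all windows) and the E-box (6.02%) were in no window of the 9 genes. A match is a match of letters and not a known binding site.

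Library totals ranged from 25913969 to 38924788 counted reads. Proximal tubule markers were higher in kidney, where the sum of 6 genes was 3126 to 14214 normalized CPM (counts scaled to a common library size) against 30.7 to 158.6 in lung. A set of 7 injured tubule markers was the reverse, with sums of 194 to 908 in kidney and 1069 to 1792 in lung. The sum of 5 ciliated and airway genes was 7189 to 22597 in lung against 1.42 to 11.5 in kidney. LepK replicate 2 stood apart by hepatocyte transcripts, with 697 normalized CPM of *Alb* (albumin), where no other library had more than 74.0. Counts were scaled within each organ by edgeR's TMM factors. Genes are termed up- or down-regulated where edgeR's quasi-likelihood test gave an adjusted p under 0.05, over all genes of the organ, and the log2 fold change was beyond 0.5 in either direction.

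Osteopontin was among the most abundant messages of the injured organs. On the per-length scale (RPKM, reads scaled to gene length and to library size over the 15 libraries), *Spp1* ranked 226 to 228 among all genes in the WTK libraries, 7 to 8 in IgGK and 11 to 14 in LepK. In lung its rank was 4 to 14 in IgGL and 29 to 58 in LepL. Its RPKM in kidney was 227 ± 3.89 for WTK, 3713 ± 109 for IgGK and 1866 ± 404 for LepK (SD, n = 3 each). For lung it was 2256 ± 916 with IgG and 581 ± 180 with LepAb (SD, n = 3 each). IgGK was the highest group and WTK the lowest, and only IgGL and LepK, which are neighbours in this order, overlapped. The ratio of *Spp1* RPKM to the summed RPKM of the 9 receptor genes was 1.66 to 1.77 in WTK, 17.1 to 17.5 in IgGK and 9.19 to 12.8 in LepK. It was 2.98 to 5.54 in IgGL and 1.16 to 2.01 in LepL.

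The receptor genes are spread over 6 chromosomes in the table's own coordinates (GRCm39 per the submitters' processing notes). On chromosome 2 are *Cd44*, *Itgav* (83554741 to 83637260), *Itgb6* (60428636 to 60552987) and *Itga4* (79085770 to 79163467). The others are *Itgb1* on chromosome 8 (129412135 to 129459681), *Itga9* on chromosome 9 (118435758 to 118730071), *Itgb3* on chromosome 11 (104498826 to 104561302), *Itga5* on chromosome 15 (103252713 to 103275190) and *Itgb5* on chromosome 16 (33650035 to 33769708).

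*Itgb1*, the β subunit shared by the α4, α5 and α9 receptors, had the highest RPKM of the receptor genes in every group. Its mean was 64.6, 84.4 and 70.0 in the kidney groups WTK, IgGK and LepK, and 253.7 and 200.2 in the lung groups IgGL and LepL. *Itgb5*, a partner of αv, came next in every group, with 38.3, 69.7, 52.3, 66.6 and 47.1 RPKM in the same order of groups. *Itga4*, the subunit that leukocytes use, was the lowest of the 10 in every group, with means from 0.313 in WTK to 2.41 in LepL. *Cd44* was at rank 8 of the 10 genes in WTK at 0.604 ± 0.221 RPKM, at rank 5 in IgGK at 13.2 ± 1.15 and at rank 4 in LepL at 29.5 ± 2.98 (SD, n = 3 each). *Itgav* went from rank 4 in the kidney groups to rank 8 in LepL. *Itgb3*, *Itga5*, *Itga9*, *Cd44*, *Itgb1* and *Itga4* were higher in each lung library than in any kidney library. *Itgav* was the reverse in part, with 23.7 to 24.0 RPKM in IgGK and 9.62 to 16.0 in the 6 lung libraries. *Itgb6*, the β subunit of the epithelial αvβ6 integrin, varied least, from 8.72 to 16.9 RPKM over the 15 libraries.

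**Figure D1:**
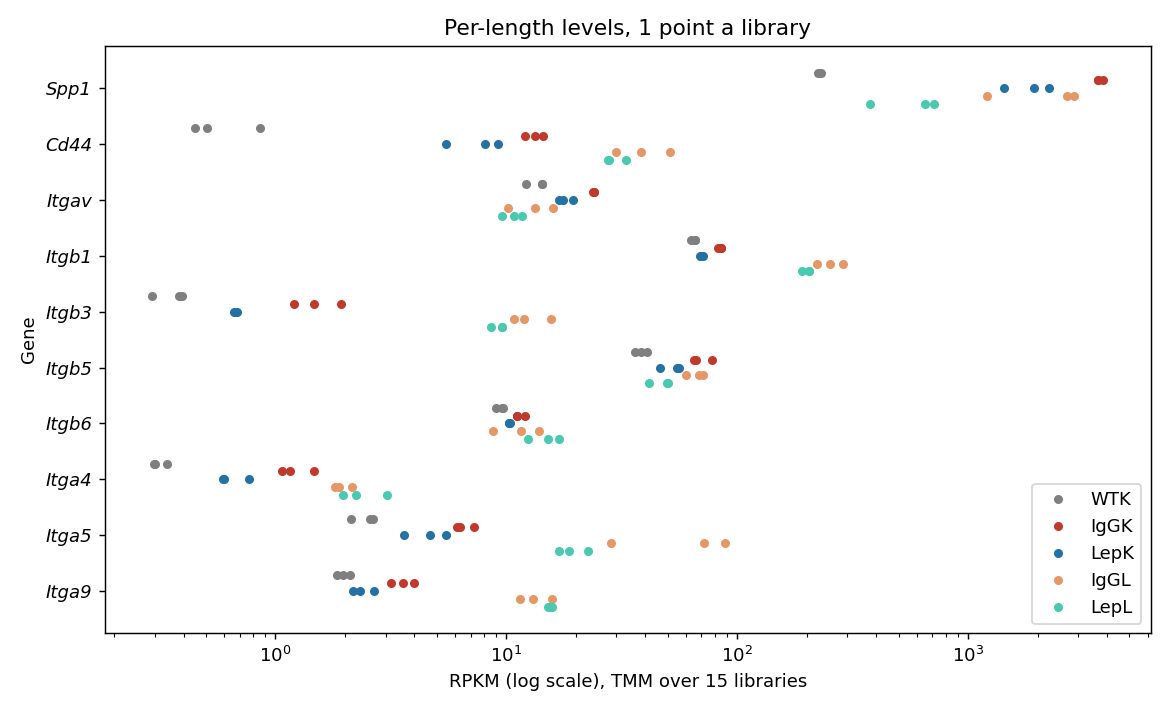
RPKM of the 10 genes (horizontal axis, log scale), with 1 point for each library and colours for the 5 groups. *Spp1* lies right of the receptor genes in the same group, and *Cd44* spans the widest range, from 0.450 RPKM in a WTK library to 50.9 in an IgGL library.

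After folic acid and IgG the kidney had more osteopontin message and more message of most receptor genes. By the labels, folic acid and IgG differ together between IgGK and WTK and cannot be told apart. Of the 10 genes, 8 were up-regulated in IgGK against WTK, where 21.7% of the 19593 genes tested were up-regulated and 15.6% were down-regulated. The median log2 fold change of the 10 was 1.14, and that of all genes was 0.041. The 3 IgGK libraries lay above the 3 WTK libraries for all 10 genes. Of all genes tested, 62.6% had no overlap between these groups. In RNA from whole tissue, fewer cells of a type and less RNA per cell cannot be told apart.

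**Figure D2:**
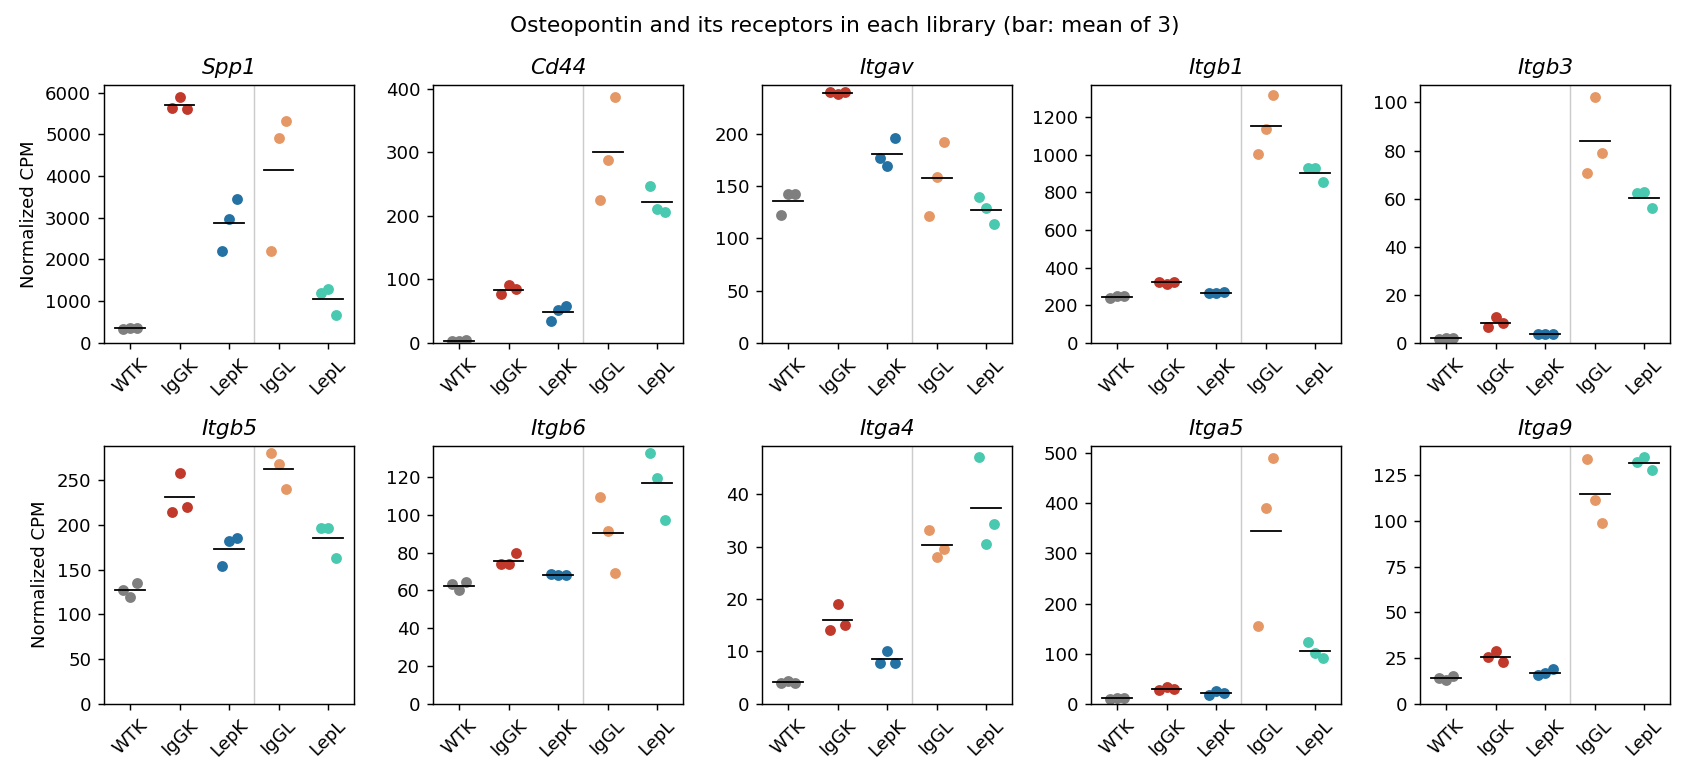
Normalized CPM (vertical axis, from 0) of each gene in each library, with a bar at the mean of the 3 libraries and a line between the kidney and lung groups. For *Spp1* the IgGK libraries are at 5609 to 5904, the LepK libraries at 2206 to 3443 and the WTK libraries at 344 to 355.

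*Spp1* (ENSMUSG00000029304, chromosome 5, 104582984 to 104588916, GRCm39 per the submitters' processing notes) had 344, 355 and 349 normalized CPM in the WTK libraries and 5624, 5904 and 5609 in the IgGK libraries. The replicates of each group were within a narrow range, and the groups were far apart. The rise was 16.4-fold (log2 fold change 4.03 with standard error 0.14, and adjusted p = 4.84e-09 by edgeR). *Gm42793*, on the same strand, overlaps *Spp1* and had at most 221 reads in a library, against 8287 to 206574 for *Spp1*.

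*Cd44* (ENSMUSG00000005087, chromosome 2, 102641486 to 102732010) had 3.20, 2.84 and 5.41 normalized CPM in WTK, from 72 to 150 reads. It had 76.3, 90.8 and 84.2 in IgGK. It was close to absent in vehicle kidney and had the largest rise of the 10, 21.7-fold (log2 fold change 4.44 with standard error 0.23, and adjusted p = 3.66e-08 by edgeR). The 95% confidence interval of its log2 fold change, 3.94 to 4.94, overlaps that of *Spp1*, 3.73 to 4.33.

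Among the subunits that read the RGD motif, *Itgb3*, which pairs with αv and is best known from platelets, osteoclasts and macrophages, had 1.62, 2.17 and 2.09 normalized CPM in WTK and 6.66, 10.6 and 8.12 in IgGK (2.11 on the log2 scale, standard error 0.22, and adjusted p = 5.15e-06 by edgeR). *Itga5*, the α subunit of the classical fibronectin receptor, went from 9.84, 11.8 and 12.2 to 28.3, 33.2 and 29.1 (log2 fold change 1.42). *Itgav*, which all αv receptors share, had 122, 142 and 143 in WTK and 240, 238 and 241 in IgGK (log2 fold change 0.82). These 3 genes were up-regulated, and so was *Itgb5*, with 128, 119 and 135 in WTK and 215, 258 and 221 in IgGK (log2 fold change 0.86). *Itgb1* had 240, 250 and 249 in WTK and 325, 315 and 325 in IgGK, a narrow spread around a log2 fold change of 0.39. That of *Itgb6* was 0.28. Both passed the adjusted p (9.77e-05 and 0.00194 from edgeR) but were under the fold change threshold.

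The α subunits that read the thrombin-exposed motif rose too. *Itga4* had 3.90, 4.42 and 3.93 normalized CPM in WTK and 13.98, 19.1 and 15.1 in IgGK, which is 1.97 on the log2 scale (standard error 0.17, and adjusted p = 8.36e-07 by edgeR). *Itga9* had 14.1, 13.3 and 15.1 in WTK and 25.7, 28.6 and 22.7 in IgGK, with a log2 fold change of 0.86. *Gm2415* and *Gm10157*, on the opposite strand of *Itga9*, had at most 235 reads in a library. Scaled by library size alone, the median of all genes moved to 0.48, and *Itgb1* (0.83) and *Itgb6* (0.72) were called as well.

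With LepAb the injured kidney had lower levels of osteopontin and of 5 receptor genes. In LepK against IgGK, 6 of the 10 genes were down-regulated, where 5.99% of all genes tested were down-regulated and 4.38% were up-regulated. All 10 log2 fold changes were negative, with a median of -0.55 against -0.012 over all genes. The LepK libraries lay below the IgGK libraries for all 10, a separation that 37.4% of all genes had. This comparison shares the IgGK libraries with that of IgGK against WTK, so the 2 sets of values are not independent.

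*Spp1* had 2206, 2963 and 3443 normalized CPM in LepK, below all IgGK libraries, with a wider spread than in IgGK. The fall was 1.99-fold, or -0.99 on the log2 scale (standard error 0.12, and adjusted p = 0.000380 by edgeR). *Cd44* had 34.8, 51.2 and 58.1 in LepK and changed by -0.80 on the log2 scale (standard error 0.18, and adjusted p = 0.00895 by edgeR). In both genes LepK replicate 1 was the lowest of the 3.

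*Itgb3* had the largest fall of the 10. Its LepK values of 3.72, 3.75 and 3.66 normalized CPM were nearly the same in the 3 libraries, and the change was -1.19 on the log2 scale (standard error 0.21, and adjusted p = 0.00217 by edgeR). *Itga4* had 7.80, 10.02 and 7.75 with LepAb (change of -0.91 on the log2 scale, adjusted p = 0.00183 by edgeR), and *Itga9* had 15.5, 16.7 and 19.1 (change of -0.59 on the log2 scale, adjusted p = 0.00326 by edgeR). The call of *Itga9* was lost without IgGK replicate 2, where the log2 fold change was -0.497.

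*Itga5* had 16.5, 25.3 and 21.5 normalized CPM in LepK and changed by -0.52 on the log2 scale (standard error 0.14, and adjusted p = 0.0207 by edgeR). Its call was lost without IgGK replicate 2 (adjusted p = 0.0859 from edgeR), without LepK replicate 1 (0.0655) and without LepK replicate 3 (0.0512), and in 1 fit of all 15 libraries (0.284). *Itgav* had 177, 169 and 196 in LepK, *Itgb5* had 154, 181 and 185, and *Itgb1* had 263, 266 and 271. Their log2 fold changes of -0.41, -0.41 and -0.27 passed the adjusted p but not the fold change threshold. *Itgb6* had 68.7, 68.2 and 68.0 in LepK against 73.8, 73.8 and 79.9 in IgGK, with a log2 fold change of -0.15 and an adjusted p of 0.105 from edgeR.

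Against vehicle, the LepK kidneys still had more osteopontin message. In LepK against WTK, 5 of the 10 genes were up-regulated, where 15.2% of all genes tested were up-regulated and 7.3% were down-regulated. These were *Cd44* (log2 fold change 3.64, standard error 0.23), *Spp1* (3.04, standard error 0.13), *Itga4* (1.06), *Itgb3* (0.92) and *Itga5* (0.90), with adjusted p from 7.78e-08 to 0.00599 from edgeR. *Spp1* was 8.22-fold higher and *Cd44* 12.5-fold higher than in WTK. *Itgb5* (0.45) and *Itgav* (0.41) passed the adjusted p only, and *Itga9* (0.27), *Itgb6* (0.13) and *Itgb1* (0.11) passed neither threshold. For each of the 10 genes the WTK, LepK and IgGK libraries lay in this order with no overlap between neighbouring groups. Of all genes tested, 50.2% had no overlap between LepK and WTK, and 37.4% had none between LepK and IgGK. How many of all genes had the full order of the 3 groups was not counted. Scaling by library size alone called 8 genes instead of 5, with *Itgb5* (0.71), *Itgav* (0.67) and *Itga9* (0.53) added, and moved the median of all genes to 0.29.

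**Figure D3:**
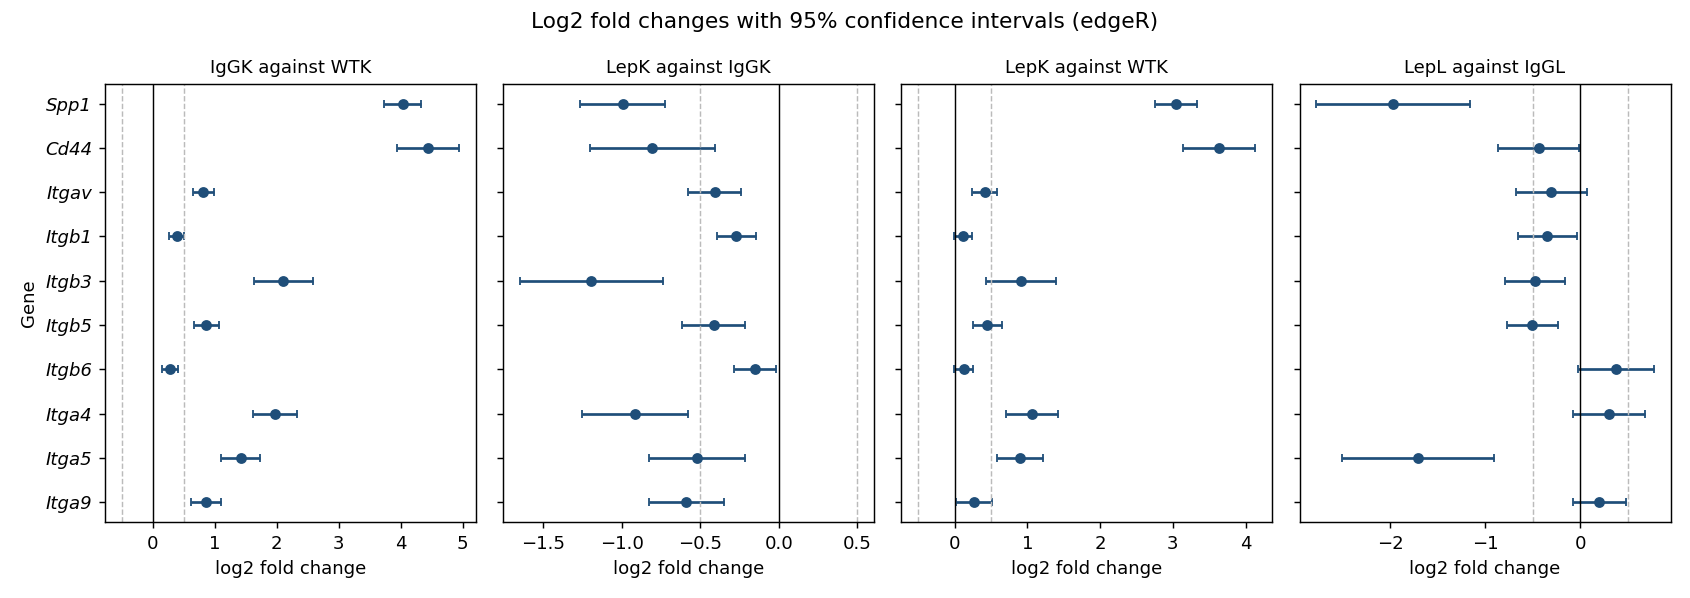
Log2 fold change of each gene (horizontal axis) in the 4 comparisons, with bars for the 95% confidence interval and dashed lines at the threshold of 0.5 in either direction. All 10 points lie right of 0 in IgGK against WTK and left of 0 in LepK against IgGK.

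Macrophage markers moved with these genes in kidney. All 12 macrophage markers were up-regulated in IgGK and 11 of 12 were down-regulated in LepK against IgGK. Over all genes 21.7% were up-regulated in IgGK and 5.99% were down-regulated in LepK against IgGK. Their summed level was 206 to 237 normalized CPM in WTK, 1946 to 2487 in IgGK and 673 to 1014 in LepK. None of the 12 was at 0 reads over the 3 libraries of any kidney group. The 7 injured tubule markers summed to 194 to 210 in WTK, 845 to 908 in IgGK and 461 to 606 in LepK, with 6 up-regulated in IgGK and 5 down-regulated in LepK. Of 6 fibroblast markers, 6 rose and 5 fell, with sums of 158 to 201, 974.6 to 1113 and 389 to 631. Of 7 neutrophil markers 4 passed the filter, and these 4 rose in IgGK and fell in LepK against IgGK, with sums over the 7 of 2.01 to 2.24, 16.9 to 25.5 and 6.85 to 9.56. The 6 T cell markers all rose in IgGK (6.31 to 10.1 in WTK and 33.5 to 60.7 in IgGK), and 1 fell in LepK against IgGK (24.5 to 37.1 in LepK). The 6 proximal tubule markers were all lower in IgGK (3126 to 4160) and in LepK (5617 to 7390) than in WTK (13349 to 14214). Over all genes 15.6% were down-regulated in IgGK and 7.3% in LepK against WTK. The part of these cell types in the values of *Spp1*, *Cd44* and the integrin genes was not tested.

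In the bleomycin lung, LepAb went with lower *Spp1* and *Itga5*. In LepL against IgGL, 3 of the 10 genes were down-regulated, where 2.36% of the 19617 genes tested were down-regulated and 1.78% were up-regulated. The median log2 fold change of the 10 was -0.39 and that of all genes 0.0033. The groups did not overlap for 5 of the 10 genes, *Spp1*, *Itga5*, *Itgb5*, *Itgb3* and *Itgb1*, and for 33.3% of all genes.

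*Spp1* had 2200, 4902 and 5314 normalized CPM in IgGL and 1194, 1305 and 681 in LepL. IgGL replicate 1 was well below the other IgGL libraries but above all 3 LepL libraries. The fall was 3.91-fold, or -1.97 on the log2 scale (standard error 0.36, and adjusted p = 0.0337 by edgeR), with a 95% confidence interval from -2.77 to -1.16. *Itga5* had the same arrangement, with 155, 391 and 491 in IgGL and 123, 102 and 92.2 in LepL. It changed by -1.71 on the log2 scale (standard error 0.35, and adjusted p = 0.0395 by edgeR). *Itgb5* had 281, 269 and 240 in IgGL and 197, 196 and 163 in LepL, a tighter spread and a smaller difference (log2 fold change -0.51, standard error 0.12, adjusted p = 0.0495 from edgeR).

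These lung calls depended on single libraries. *Spp1* and *Itga5* were called in 1 of the 6 fits with a library left out, that without IgGL replicate 1, and *Itgb5* in none of them. Without IgGL replicate 2 the adjusted p of *Spp1* was 0.158 from edgeR and without LepL replicate 3 it was 0.176. Its log2 fold change stayed between -2.27 and -1.73 in the 6 fits, while over all genes the down-regulated genes numbered 0 to 4 in the 5 fits that kept IgGL replicate 1. *Itgb5* also missed the call with RLE size factors (adjusted p = 0.0504 from edgeR), with library size alone (0.0624) and with upper-quartile factors (0.0585).

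IgGL replicate 1 had the lowest value of its group for *Spp1*, *Itga5*, *Cd44*, *Itgav*, *Itgb1* and *Itgb3*, and the highest for *Itgb5*, *Itgb6*, *Itga4* and *Itga9*. Without it, *Cd44* (log2 fold change -0.61), *Itgb3* (-0.59), *Spp1* and *Itga5* were down-regulated and *Itgb6* (0.53) was up-regulated, but *Itgb5* (-0.46) was under the fold change threshold. With all 6 libraries, *Cd44* had 225, 288 and 387 normalized CPM in IgGL and 248, 210 and 206 in LepL, with overlap and a 95% confidence interval from -0.86 to -0.014. *Itgb3* had 70.7, 102 and 78.9 in IgGL and 62.4, 62.6 and 55.9 in LepL, and *Itgb1* had 1003, 1135 and 1317 against 930, 928 and 854. Neither overlapped, and neither was called (adjusted p = 0.0767 and 0.144 by edgeR). *Itgb6* had 110, 91.5 and 69.5 in IgGL and 133, 120 and 97.4 in LepL, with an interval from -0.028 to 0.77. *Itga4* (interval -0.076 to 0.68) and *Itga9* (-0.078 to 0.48) also had higher means in LepL, and their groups overlapped.

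Among the lung markers, 4 of 6 fibroblast markers were down-regulated in LepL, with summed levels of 4910 to 5650 normalized CPM in IgGL and 2010 to 2829 in LepL. Over all genes 2.36% were down-regulated and 1.78% were up-regulated. Of 6 neutrophil markers tested, 4 were down-regulated and 6 had a negative log2 fold change, with a median of -1.72 and sums over the list of 150 to 378 in IgGL and 57.1 to 88.9 in LepL. The 6 T cell and 4 B cell markers all had positive log2 fold changes, with medians of 0.89 and 0.90, and none was called. Of 5 platelet and megakaryocyte markers tested, 2 were up-regulated and 1 had a negative log2 fold change. Of the 12 macrophage markers, 2 were down-regulated and 11 had a negative log2 fold change. Their sum was higher in LepL (8485 to 8815) than in IgGL (4530 to 7293), and *Lyz2*, which alveolar type 2 cells also express, alone had 2203 to 5325 in IgGL and 6978 to 7375 in LepL. None of the 12 was at 0 reads over the 3 libraries of either lung group. The 5 alveolar type 2 markers summed to 6373 to 11813 in IgGL and 17101 to 23377 in LepL, and 3 were up-regulated. With any lung library other than IgGL replicate 1 left out, at most 4 of all genes were down-regulated. The markers were not followed in those fits. The part of these cells in the lung values was not tested.

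The antibody effect was compared between organs in 1 fit of the 12 libraries from injured organs. A negative difference means that the log2 change with LepAb was lower in kidney than in lung. Of all 21488 genes tested, 3.51% had a higher and 3.62% a lower value in kidney at an adjusted p under 0.05, and 2 of the 10 genes had a lower one. *Itga4* fell in kidney and had a log2 fold change of 0.30 in lung, and the difference was -1.18 (standard error 0.24, adjusted p = 0.0192 from edgeR). For *Itga9* the kidney and lung values were -0.59 and 0.20, and the difference was -0.76 (standard error 0.17, adjusted p = 0.0238 from edgeR). *Itgb3* and *Itgb6*, subunits of RGD receptors, had negative differences too, of -0.68 (95% confidence interval -1.19 to -0.18, adjusted p = 0.0891 by edgeR) and -0.49 (-0.93 to -0.051, adjusted p = 0.151 by edgeR), which were not called. With 1 library left out at a time, *Itga4* was called in 10 of 12 fits and *Itga9* in 7. Both missed the threshold without IgGK replicate 2 (adjusted p = 0.0528 and 0.0667 by edgeR) and without IgGL replicate 2 (0.0524 and 0.0621). *Itga9* also missed it without LepK replicate 1 (0.0614), LepL replicate 2 (0.0509) and LepL replicate 3 (0.0545).

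For *Spp1* and *Itga5* the differences were positive and were not called. That of *Spp1* was 1.002 with a 95% confidence interval from 0.10 to 1.90 (adjusted p = 0.151 from edgeR), and that of *Itga5* was 1.22 with an interval from 0.30 to 2.14 (adjusted p = 0.0970 from edgeR). Without IgGL replicate 1 both were called, at 1.31 and 1.57. The difference of *Cd44* was -0.34 (interval -0.92 to 0.25), that of *Itgav* -0.070 (-0.49 to 0.35), that of *Itgb1* 0.11 (-0.20 to 0.42) and that of *Itgb5* 0.12 (-0.21 to 0.46). Organ, injuring agent and day of collection differ together here and cannot be told apart.

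**Figure D4:**
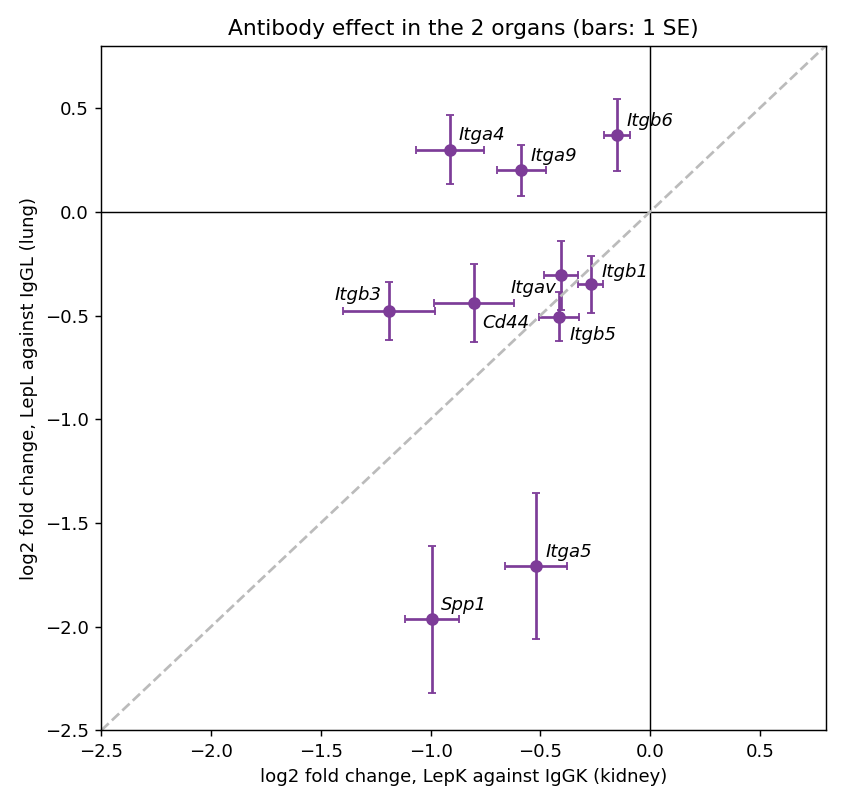
Log2 fold change with LepAb in kidney (horizontal axis) and in lung (vertical axis) for the 10 genes, with bars of 1 standard error and a dashed line where both are equal. *Spp1* and *Itga5* lie below the line, at -1.97 and -1.71 in lung, and *Itga4*, *Itga9* and *Itgb6* lie above 0 in lung.

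The wider pathway was followed in 6 lists with 56 genes in all, which hold none of the 10. The list of other osteopontin-binding integrin subunits has 2 genes. *Itgb7*, the β subunit of a gut-homing leukocyte integrin, had 6.15, 6.08 and 7.10 normalized CPM in WTK and 15.004, 26.2 and 18.2 in IgGK. It was up-regulated in IgGK (log2 fold change 1.62) and in LepK against WTK (1.16). *Itga8*, the subunit of a mesenchymal RGD receptor, had 9.63 to 13.3 in WTK and IgGK together, with no order between them. Of the other secreted proteins of the osteopontin family, *Ibsp*, *Dmp1*, *Mepe* and *Dspp*, none passed the filter on low counts in kidney. In lung *Dspp* had 1.14, 4.19 and 4.26 in IgGL and 0.588, 0.672 and 0.327 in LepL, and was down-regulated (log2 fold change -2.59, adjusted p = 0.0418 from edgeR).

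Among 8 enzymes that cleave or crosslink osteopontin, 4 were up-regulated in IgGK, where 21.7% of all genes were. The matrix metalloproteinase gene *Mmp7* had 0, 0.0790 and 0.0361 normalized CPM in WTK, 14.97, 22.0 and 18.6 in IgGK and 3.49, 5.67 and 7.05 in LepK. No fold is given against the few reads in WTK. The elastase gene *Mmp12*, which overlaps *Mmp1b* in the annotation, had 3.16, 3.16 and 3.89, then 96.9, 139 and 101, then 12.1, 21.3 and 22.6. Both were down-regulated in LepK against IgGK, *Mmp7* by a log2 fold change of -1.78 and *Mmp12* by -2.59. Over all genes 5.99% were down-regulated there. In lung *Mmp3*, stromelysin, was down-regulated (-0.996), and *Mmp12* was not called (0.26, standard error 0.56). The thrombin gene *F2* was called as up-regulated in LepK against WTK (4.07) through LepK replicate 2, which had 16.1 normalized CPM, where no other library had more than 1.69. Without that library its log2 fold change was 1.51 and its adjusted p 0.186 from edgeR.

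Of 13 other ligands of the same integrins, not all through an RGD motif, 10 were up-regulated in IgGK. In LepK against IgGK 7 were down-regulated and in LepL 4, with medians of 1.49, -0.59 and -0.56 in the same order. Over all genes 21.7%, 5.99% and 2.36% were called in these directions. Among those not called, *Ccn2* had 0.025 with folic acid and IgG, and -0.044 for LepK against IgGK, and *Npnt* (0.18), *Tgfb3* (0.17) and *Vtn* (0.67) had positive values in LepL. The fibronectin gene *Fn1* had 24.3, 23.8 and 26.8 normalized CPM in WTK, 273, 288 and 261 in IgGK and 85.0, 139 and 122 in LepK. *Tnc*, tenascin C, rose by 3.06 on the log2 scale in IgGK and had -1.11 in LepK against IgGK and -2.36 in LepL. *Fbn1*, fibrillin 1, had -1.34 in both organs, and *Fn1* had -1.25 in kidney and -1.34 in lung. In LepK against WTK 11 of the 13 were up-regulated, among them *Vtn* (4.48), the vitronectin gene, again through LepK replicate 2 (18.2 normalized CPM, against at most 2.20 in the other kidney libraries). Without it *Vtn* had 1.22 and an adjusted p of 0.275 from edgeR.

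Of the hyaluronan and CD44 partners, 9 were tested in kidney. In IgGK 3 were up-regulated and 2 down-regulated, where 21.7% and 15.6% of all genes were so called. *Vcan* (versican, 0.90) and *Srgn* (serglycin, 0.84) rose most in IgGK, with *Msn* (moesin, 0.74) as the third, and *Hyal2* (a hyaluronidase, -0.61) and *Rdx* (radixin, -0.60) fell. In LepK against IgGK edgeR called 0 of the 9, with 4 at an unadjusted p under 0.05 and 1 called by DESeq2. *Msn* (log2 fold change -0.43, adjusted p = 0.00149 by edgeR) and *Srgn* (-0.47, 0.0172) passed the adjusted p only. In LepK against WTK edgeR called 0 of the 9, with 5 at an unadjusted p under 0.05 and 0 called by DESeq2. *Rdx* (-0.48, adjusted p = 0.000226 by edgeR), *Hyal2* (-0.41, 0.000612), *Srgn* (0.37, 0.0354) and *Msn* (0.30, 0.00478) passed the adjusted p only. In lung 0 of 11 passed edgeR's adjusted p, with 3 at an unadjusted p under 0.05 and 2 called by DESeq2. The hyaluronan synthase genes *Has1* and *Has2* did not pass the filter in kidney.

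Of the integrin adaptors and kinases, 17 were tested in kidney, of which IgGK had 7 higher and 3 lower than WTK, where 21.7% and 15.6% of all genes were so called. The leukocyte adaptors *Parvg* (1.91) and *Fermt3* (1.64) rose most. *Tln2* (talin 2, -1.30) and *Ptk2b* (a kinase of the focal adhesion kinase family, -0.58) fell most. In LepK against IgGK *Vcl* (vinculin, -0.83) and *Parvg* (-0.83) were the largest of 4 falls, and *Tln2* rose (0.64). In LepK against WTK *Actn1* (an α-actinin, 1.11) and *Parvg* (1.08) led 4 rises, and *Tln2* (-0.66) fell. In lung 2 of 18 were down-regulated, *Actn1* (-0.82) and *Zyx* (zyxin, -0.59). The integrin-linked kinase gene *Ilk*, which overlaps *Taf10* and *Rrp8* and had at most 0.759 normalized CPM in a library, was tested in lung only. Over all 56 genes, 25 of 49 tested were up-regulated and 5 down-regulated in IgGK, 1 and 13 in LepK against IgGK, 20 and 1 in LepK against WTK, and in lung 8 of 52 were down-regulated. The shares of all genes called up and down were 21.7% and 15.6%, 4.38% and 5.99%, and 15.2% and 7.3% in the kidney comparisons, and 2.36% were down-regulated in lung. Those in lung numbered 18 without IgGL replicate 1 and 0 without any 1 of the other 5 lung libraries, so the lung calls of *Mmp3*, *Tnc*, *Fn1*, *Fbn1*, *Actn1*, *Zyx* and *Dspp* were all lost in those 5 fits.

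**Figure D5:**
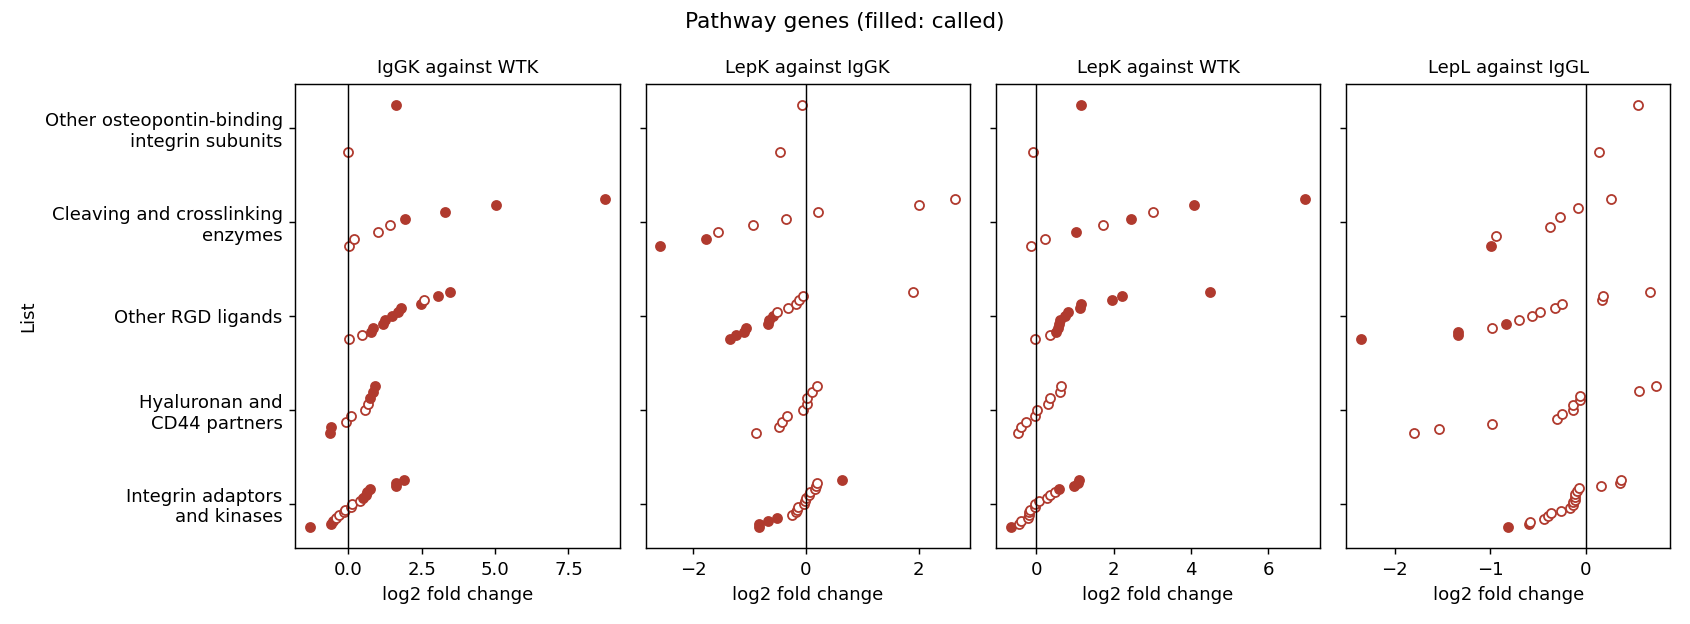
Log2 fold change (horizontal axis) of each gene tested in 5 of the lists, in the 4 comparisons, with filled points for called genes and a separate axis range for each panel. Most filled points of the row of other RGD ligands lie right of 0 in IgGK against WTK and left of 0 in both antibody comparisons. That row holds other ligands of the same integrins, not all through an RGD motif.

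Genes with a like pattern were sought for *Spp1*, *Cd44* and *Itgb6* by the root mean square difference of their centred log2 CPM, over the 9 kidney or the 6 lung libraries. In kidney *Cfi* (complement factor I, 0.18), *Ccl9* (a chemokine, 0.20) and *Mmp14* (a membrane metalloproteinase, 0.21) were closest to *Spp1*, whose own SD was 1.82. *Cfi* had 1.69 to 2.45 normalized CPM in WTK, 27.4 to 31.5 in IgGK and 10.2 to 18.6 in LepK. *C3* (complement C3, 0.18), *Vcam1* (an adhesion molecule that α4β1 binds, 0.26) and *Sox9* (a transcription factor, 0.26) were closest to *Cd44*, and *Kdm3b*, *Chd6* and *Rc3h1* were closest to *Itgb6* (0.036 to 0.042). The SD of *Cd44* was 2.09 and that of *Itgb6* only 0.13. Candidates numbered 601 for *Spp1*, 416 for *Cd44* and 11890 for *Itgb6*, so the differences cannot be compared between members.

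In lung *Zfp469* (0.11), *Serpinb9b* (0.15) and *Gm41442* (0.15) were closest to *Spp1*, with the low IgGL replicate 1 in common. *Zfp469* had 14.04, 28.6 and 37.0 normalized CPM in IgGL and 6.82, 7.30 and 4.23 in LepL. *Yju2*, *Ino80c* and *Memo1* were closest to *Cd44* (0.025 to 0.055), and *Tgfb2*, *Pradc1* and *Wdr6* were closest to *Itgb6* (0.072 to 0.079). The SDs in lung were 1.19 for *Spp1*, 0.35 for *Cd44* and 0.33 for *Itgb6*, among 916, 7797 and 8121 candidates. The genes nearest to a member differed between kidney and lung for all 3 members. These values describe likeness over few libraries that also share their groups, and no test was made.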

How the data were processed

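RNA of 9 kidney and 6 lung samples was analysed from poly(A)-enriched, non-directional libraries, so reads of overlapping genes on opposite strands cannot be told apart. The deposited table holds the authors' read counts per gene and library, without normalization, with gene positions and lengths. It also holds FPKM values made by the authors, which equal counts over length times a constant that differs between libraries (0.686 to 0.981), and were not used. The submitters' processing notes name GRCm39 (mm39) and DESeq2. The aligner and counting tool are not given in the sources used here. The table also holds the authors' own fold changes and p-values, which were not used. A line of the sample descriptions that names a column disagrees with the titles and was not used. All samples carry 1 batch label.

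Counts were analysed with R 4.3.3 and edgeR 4.0.16 (filterByExpr with minimum count 10 and minimum total count 15, TMM factors, quasi-likelihood test), with Benjamini-Hochberg adjustment over all genes. The kidney and lung libraries were fitted apart, and the comparison between organs in 1 fit of 12 libraries. A call needed an absolute log2 fold change over 0.5 and an adjusted p under 0.05, and for the comparison between organs the adjusted p only. Standard errors are the log2 fold change over the square root of F, and 95% intervals are not adjusted. Log2 CPM for likeness of patterns used a prior count of 2, among genes with a mean of at least 5 CPM and an SD of at least 0.5 times the member's. Named genes were the 10 members, up to 2 rises and 2 falls among called genes of each list and comparison, and the 3 nearest genes for *Spp1*, *Cd44* and *Itgb6*. Others named were chosen after their values were seen. The members and lists were chosen with earlier results of these data known. At these depths 1 read equals 0.0257 to 0.0386 CPM. Replicates of a group differed by more than sampling noise, since the chi-square of each pair, summed over all genes with at least 10 reads and divided by its degrees of freedom, was 6.73 to 87.4. The alternatives covered 3 other scalings (RLE, upper quartile and library size), DESeq2 1.42.0, other filters and thresholds, other sets of libraries in the fit, and each library left out. The values of *F2* and *Vtn* without LepK replicate 2 were added after seeing the data. The code was tested on simulated data.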

Additional observations from a re-analysis of the deposited data

Results flagged for a closer look

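For 6 genes the change with LepAb differed between kidney and lung in a test of the difference itself (kidney minus lung, edgeR's quasi-likelihood test, adjusted p under 0.05). They are 2 of the 10 osteopontin and receptor genes and 4 of 54 pathway genes tested. Over all genes 3.51% had a higher and 3.62% a lower value in kidney, so the share of pathway genes is near that of all genes. With 1 library left out at a time, 0 to 9 pathway genes were called higher and 0 to 6 lower. *Itga4* was called in 10 and *Itga9* in 7 of 12 such fits. The log2 fold change of *Itga4* was -0.91 for the kidney and 0.30 for the lung, a difference of -1.18 (adjusted p = 0.0192 by edgeR). For *Itga9* they were -0.59 and 0.20, a difference of -0.76 (adjusted p = 0.0238 by edgeR). The elastase gene *Mmp12* changed by -2.59 and 0.26, a difference of -2.82 (adjusted p = 0.0328 by edgeR), with 40.7 to 274 normalized CPM among the 3 IgGL libraries. *Vcl* changed by -0.83 and -0.077, a difference of -0.72 (adjusted p = 0.0266 by edgeR), and the matrix gene *Postn* by -1.07 and -0.32, a difference also of -0.72 (adjusted p = 0.0449 by edgeR). The adaptor gene *Bcar1* changed by 0.20 in kidney and -0.39 in lung, a difference of 0.63 (adjusted p = 0.0187 by edgeR). Organ, injuring agent, days of antibody and day of collection differ together and cannot be told apart.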

How the results depend on the processing

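Scaled by library size only, the median log2 fold change of all genes moved to 0.48 in IgGK against WTK, -0.19 in LepK against IgGK, 0.29 in LepK against WTK and -0.25 in kidney minus lung. With it, 1 pathway gene was lower in IgGK against WTK, 0 were higher and 21 lower in LepK against IgGK, and 8 of the 10 receptor and ligand genes were higher and 0 pathway genes lower in LepK against WTK. In kidney minus lung it called 4 of the 10 as lower and 0 pathway genes as higher, and the differences of *Itgb1* (-0.14) and *Itgb5* (-0.12) reversed. DESeq2 called 16 pathway genes lower in lung and 6 higher in kidney minus lung. Without a filter on low counts, 4 pathway genes were higher in LepK against IgGK, 1 higher and 17 lower in lung, and in kidney minus lung 2 of the 10 and 6 pathway genes were higher and 5 pathway genes lower. Beyond an absolute log2 fold change of 1, IgGK against WTK had 5 of the 10 and 16 pathway genes higher and 1 lower, LepK against IgGK 1 of the 10 and 6 pathway genes lower and 0 higher, LepK against WTK 3 of the 10 and 12 pathway genes higher and 0 lower, and the lung 4 pathway genes lower. With no fold change threshold, 2 pathway genes were higher in LepK against IgGK and 8 lower in LepK against WTK. In 1 fit of all 15 libraries 16 pathway genes were lower in lung. With the replicate number as a block, 0 of the 10 and 0 pathway genes were lower in lung (*Spp1* -1.92, adjusted p = 0.0810 by edgeR), *Itgb6* passed the threshold in kidney minus lung (-0.50, adjusted p = 0.0408 by edgeR), and no count in the other comparisons moved by over 1.5 times. The numbers share no stated origin. In kidney, deviations of same-numbered libraries correlated by -0.035 to 0.18 and those of other pairs by -0.19 to 0.044. In lung these values were -0.055 to 0.071 and -0.082 to 0.11. With 3 libraries a group, such correlations cannot decide whether the numbers pair the samples.

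With each library left out, pathway genes higher in LepK against IgGK ranged from 1 to 2 and those lower in LepK against WTK from 1 to 3. In lung, 0 to 1 of the 10 were higher and 0 to 4 lower, and 0 to 2 pathway genes were higher and 0 to 18 lower, the upper values all without IgGL replicate 1. In kidney minus lung, 0 to 2 of the 10 were higher and 0 to 3 lower, and 0 to 9 pathway genes were higher and 0 to 6 lower. The difference of *Itgav* ranged from -0.27 to 0.088, reversed without IgGL replicate 1, and that of *Itgb1* from -0.027 to 0.20, reversed without IgGL replicate 3. *Spp1* in LepK against IgGK ranged from -1.14 to -0.83 and was called in 9 of 9 such fits. The low counts of *Cd44* in WTK (72 to 150 reads) limit its fold change there, and with 3 libraries a group the lung spread limits every lung call. Causes of these changes were not tested.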
